A study of Mus musculus with 16 samples.

Results

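The effect of resveratrol (RSV) given on top of a high-fat diet (HFD) was examined in skeletal muscle by comparing the HFD + RSV group with the HFD group, 8 of the 16 mice sequenced in the series. The mice were chosen by their treatment label alone, 4 per group, and no measured value entered the choice. All 8 were male C57BL/6J mice, bought at 6 weeks of age and fed for 8 weeks on a diet labelled as 60% fat. The HFD + RSV mice, whose label spells the drug reveratrol, then received RSV by stomach tube for 6 weeks, whereas the HFD mice received no drug. A further 4 mice on normal diet, the control group, entered the statistical fit and are quoted beside some values, and 4 HFD mice given metformin were not compared here. The labels do not give which muscle was taken, whether the HFD mice received the solvent of RSV, or whether the sequenced mice had been injected with insulin before death. All 4 HFD mice carry mouse labels that begin with the number 7, which no HFD + RSV mouse carries. If that number marks a cage or litter, its effect and that of RSV cannot be told apart.

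RSV is a plant polyphenol studied in obese animals for its effects on glucose handling, and sirtuins, AMPK, cAMP phosphodiesterases and the aryl hydrocarbon receptor are among the proteins it is known to act on, directly or indirectly. Muscle takes up much of the glucose cleared under insulin, through IRS proteins, AKT kinases and the glucose transporter GLUT4. Cytokines and growth hormone signal to the same cells through JAK kinases and STAT transcription factors. STAT proteins switch on the SOCS genes, and the SOCS proteins then bind receptors and kinases to end the signal, some of them also acting on IRS proteins.

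One library per mouse was sequenced after ribosomal RNA was removed, and the total count over the mRNA and lncRNA tables was 24498057 to 30593942 in the HFD mice and 25875125 to 27447118 in the HFD + RSV mice. Counts were summed per gene name, and 15097 genes and 16503 lncRNA transcripts were tested after low counts were removed. Levels are given as CPM, counts scaled to a common total within each table, and log2FC is HFD + RSV minus HFD throughout. The tissue label was checked against 10 muscle fibre genes, which summed to 267200 to 347400 CPM per mouse, and against 12 retina genes, because the extraction label mentions retinas. Of the retina genes 7 were present in the data, and they summed to 4.93 to 7.07 CPM, of which Rom1 alone made up 4.22 to 5.90 CPM. Rhodopsin and 8 others were absent or too low to test.

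HFD + RSV mice 2 and 4 stood apart from the other 6 in genes that mark where along the body or limb a tissue lies. Hoxd8, a transcription factor of this kind, was at 5.06, 7.45, 7.35 and 4.80 CPM in the HFD mice and at 4.66, 37.2, 5.45 and 43.2 CPM in the HFD + RSV mice. Tbx1, a transcription factor of the developing head, heart and body wall, was at 23.7 to 29.3 CPM in the HFD mice, at 26.9 and 25.6 CPM in HFD + RSV mice 1 and 3, and at 1.94 and 1.15 CPM in HFD + RSV mice 2 and 4. The 4 control mice lay at 3.06 to 12.1 CPM for Hoxd8 and 8.29 to 20.7 CPM for Tbx1. Hoxa10 and Hoxc10 showed no such split, with 10.2 to 12.4 and 40.2 to 46.7 CPM in the 8 mice. Results that rest on mice 2 and 4 are given below with and without them, and the part that the site of sampling plays in them was not tested.

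A gene is said to have passed, to have risen or to have fallen where its unadjusted P in edgeR was under 0.05, and it was called where its log2FC was also beyond 1 in either direction. Under RSV, 133 genes (0.881% of those tested) were called up and 29 (0.192%) down. Without the size criterion, 532 genes (3.52%) rose and 373 (2.47%) fell. After adjustment in edgeR 0 genes remained below 0.05, the smallest adjusted P being 0.112, beside the 905 (5.99%) that passed unadjusted. By the same unadjusted P and log2FC criteria DESeq2 called 183 genes, beside 162 in edgeR. Every HFD + RSV mouse lay above every HFD mouse for 292 genes (1.93%) and below for 342 (2.27%). Among the called genes this held for 27 of the 133 upregulated and 10 of the 29 downregulated, and 50 and 10 of them had means below 1 CPM.

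Many of the upregulated genes were led by 1 animal. HFD + RSV mouse 2 had the highest level of its group in 82 of the 133 upregulated genes (61.7%) and the lowest level in 9 of the 29 downregulated genes (31.0%). Without mouse 2 there were 58 upregulated and 53 downregulated genes, and without mice 2 and 4 there were 77 and 65, with 48 of the 162 calls among them. Without HFD + RSV mouse 1 or 3, by contrast, 248 and 271 genes were called.

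Genes of the SOCS family stood among the most strongly downregulated. Of 14 genes of the SOCS family and cytokine feedback, all of them tested, Cish, Socs1, Socs3 and Socs2 fell and none rose, and the first 3 were also called. Of all genes, 2.47% fell and 0.192% were called down. The other 10, among them Socs4 to Socs7, the repressor Bcl6 and the kinase Pim1, did not pass, and the median log2FC of the list was -0.12, beside 0.01 over all genes. The same 4 genes still passed whichever mouse was left out, and also without HFD + RSV mice 2 and 4 together.

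Cish encodes a SOCS-family protein and is a well-known target of STAT5. The 300 bases around its start, from 250 before to 50 after it, are shown with those of Socs3, Socs1 and Bcl6. STAT proteins regulate these genes, and the classic binding motif of STAT proteins is TTCNNNGAA. The sequences are RefSeq promoters on GRCm38.p6, written 5′ to 3′ on the strand of the gene, with each match to the motif in capitals. The motif reads the same on both strands.
Cish, chr9:107296409-107296708, plus strand: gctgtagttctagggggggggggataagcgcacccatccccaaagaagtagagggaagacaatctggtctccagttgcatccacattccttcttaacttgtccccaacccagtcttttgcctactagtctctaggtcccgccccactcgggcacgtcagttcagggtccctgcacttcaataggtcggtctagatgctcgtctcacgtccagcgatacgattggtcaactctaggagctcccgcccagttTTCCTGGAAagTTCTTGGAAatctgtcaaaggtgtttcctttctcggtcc
Socs3, chr11:117969317-117969616, minus strand: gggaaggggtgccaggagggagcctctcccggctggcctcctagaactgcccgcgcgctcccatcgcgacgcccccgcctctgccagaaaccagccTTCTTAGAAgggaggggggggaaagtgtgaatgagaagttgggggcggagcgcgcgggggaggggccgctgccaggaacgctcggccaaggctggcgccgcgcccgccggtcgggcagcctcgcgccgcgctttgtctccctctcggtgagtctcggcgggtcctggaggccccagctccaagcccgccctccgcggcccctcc
Socs1, chr16:10785487-10785786, minus strand: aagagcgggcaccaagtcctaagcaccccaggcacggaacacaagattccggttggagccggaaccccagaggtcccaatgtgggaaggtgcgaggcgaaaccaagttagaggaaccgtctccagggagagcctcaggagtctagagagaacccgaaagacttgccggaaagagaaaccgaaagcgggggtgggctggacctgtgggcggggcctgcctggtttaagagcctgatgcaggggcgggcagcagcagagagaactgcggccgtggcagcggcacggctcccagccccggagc
Bcl6, chr16:23988803-23989102, minus strand: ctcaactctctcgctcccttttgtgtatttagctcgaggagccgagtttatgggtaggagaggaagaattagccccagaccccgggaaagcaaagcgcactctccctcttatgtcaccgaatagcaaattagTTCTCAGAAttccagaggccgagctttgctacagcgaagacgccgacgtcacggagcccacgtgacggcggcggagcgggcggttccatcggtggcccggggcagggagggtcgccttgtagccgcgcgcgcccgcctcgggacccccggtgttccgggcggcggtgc
The Cish window holds the motif 2 times, at positions 1 and 12 counted from the first base of the transcript, and the windows of Socs3 and Bcl6 shown here hold it 1 time each. A second Bcl6 window, at chr16:23981234-23981533, holds it 3 times. The Socs1 window holds no match, and of the 32851 RefSeq promoter windows 8.30% hold at least 1. Of the 14 genes of the SOCS and feedback list, 9 have a window, and only Cish, Socs3 and Bcl6 among them hold the motif. By gene, 9.55% of all genes with a window hold it. A match is a description of the letters, and binding was not measured here.

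Cish (9:107296026-107302784) was at 52.0, 53.8, 66.7 and 97.5 CPM in the HFD mice and at 8.96, 16.3, 14.3 and 6.97 CPM in the HFD + RSV mice. The groups were far apart, with means of 67.5 ± 21.1 and 11.6 ± 4.38 CPM (SD), and the control mice lay with the HFD + RSV mice at 6.94 to 20.5 CPM. The level was 5.80-fold lower with RSV (log2FC -2.54, SE 0.37, adjusted P = 0.205 in edgeR).

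Socs1 (16:10783808-10785536), whose protein blocks JAK kinases and has been tied to insulin resistance, was much less abundant. It was at 1.29, 1.43, 3.32 and 6.54 CPM in the HFD mice, or 30 to 143 counts, and at 0.532, 0.860, 0.571 and 0.444 CPM in the HFD + RSV mice, or 10 to 20 counts. No HFD + RSV mouse reached the lowest HFD mouse, and the 4 control mice were at 0.363 to 0.703 CPM. The log2FC was -2.37 (SE 0.50, adjusted P = 0.771 in edgeR, unadjusted 0.000515).

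Socs3 (11:117966079-117969186), the member that interleukin 6 induces in muscle, was at 6.99, 4.59, 9.01 and 18.7 CPM in the HFD mice and 4.79, 2.67, 3.65 and 2.93 CPM in the HFD + RSV mice. The groups overlapped by 1 mouse on each side, and without HFD mouse 4, the highest, the log2FC of Socs3 moved from -1.48 to -0.97, too small for a call. Socs2 (10:95385362-95417180), a STAT5 target that limits growth hormone signalling, was at 9.70, 17.1, 14.7 and 24.1 CPM in the HFD mice and 8.16, 10.5, 10.2 and 8.75 CPM in the HFD + RSV mice. Its groups also overlapped, and its log2FC of -0.80 was too small for a call. HFD mouse 4 was the highest of its group for all 4 genes.

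**Figure D1:**
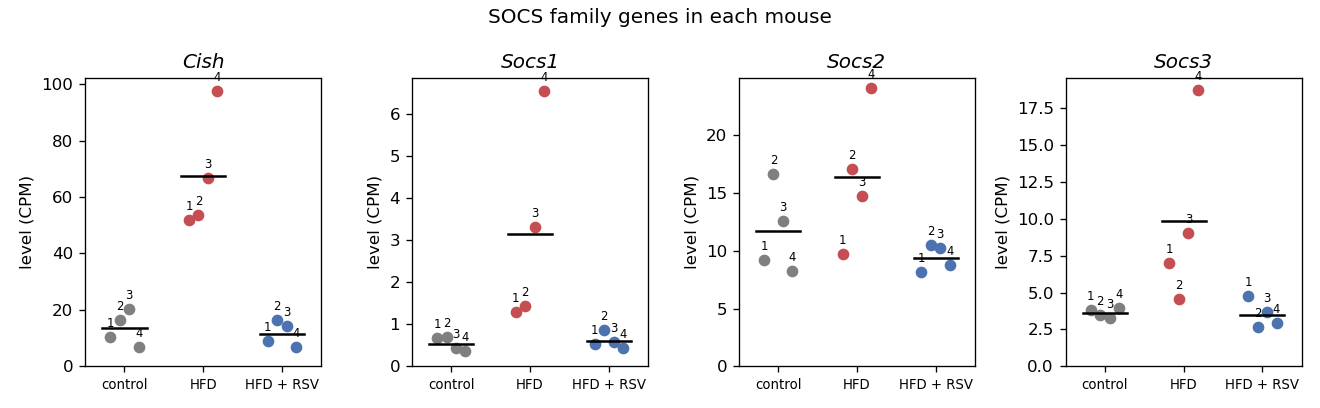
Levels in CPM (vertical axes, from 0) of Cish, Socs1, Socs2 and Socs3 in each control, HFD and HFD + RSV mouse, with the mouse number above each point and the group mean as a black line. Cish stood between 52.0 and 97.5 CPM in the HFD mice and between 6.97 and 16.3 CPM in the HFD + RSV mice, and HFD mouse 4 was the highest mouse in all 4 panels.

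No gene of the pathway upstream of the SOCS proteins passed. Of 16 cytokine receptor, JAK and STAT genes tested, 0 rose and 0 fell, and their log2FC ran from -0.20 to 0.21. Jak1, the most abundant kinase of the list, averaged 237 CPM in the HFD group and 217 CPM in the HFD + RSV group (log2FC -0.13, 95% interval -0.31 to 0.06). Ghr, the growth hormone receptor, was at 219 to 246 CPM in the HFD mice and 223 to 238 CPM in the HFD + RSV mice (log2FC -0.05, 95% interval -0.27 to 0.18).

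Some of the lncRNAs called down, 0.854% of those tested, lay over or near Socs2, Hemk1, Bcl6 and Ikzf4. Of these genes only Socs2 and Bcl6 are on the SOCS list, and lncRNAs near its other members were not counted. NONMMUT006953.2 (10:95408353-95412199), a transcript of 3847 bases, overlapped an untranslated region of Socs2. It was at 36.4, 43.0, 63.7 and 86.8 CPM in the HFD mice and at 12.3, 11.5, 11 and 6.41 CPM in the HFD + RSV mice (log2FC -2.47, adjusted P = 0.0839 in edgeR). The counts of Socs2 and this lncRNA together were 350 to 781 in the HFD mice and 218 to 285 in the HFD + RSV mice, so the summed locus was lower in every treated mouse. NONMMUT153460.1 (9:107327449-107336207), which lies over exons of Hemk1 and 24.7 kb beyond the end of Cish, had 15, 32, 56 and 51 counts in the HFD mice and 0, 2, 2 and 3 in the HFD + RSV mice (adjusted P = 0.0604 in edgeR). Hemk1 itself, a methyltransferase of translation release factors, was at 8.40 to 11.9 and 7.29 to 9.55 CPM and did not pass.

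The nearer end of NONMMUT026006.2 (16:23989075-23992453) lies 223 bases from the start of Bcl6. This lncRNA was at 212 to 571 CPM in the HFD mice and 79.0 to 168 CPM in the HFD + RSV mice, with log2FC -1.39. Bcl6 itself, a transcriptional repressor that STAT5 regulates, was at 86.6 to 120 and 70.9 to 118 CPM, with log2FC -0.22 (95% interval -0.74 to 0.30), and did not pass. NONMMUT139818.1 (10:128646167-128652167), 176 bases from Ikzf4, was at 4.40 to 29.2 CPM and 1.44 to 2.10 CPM in the HFD and HFD + RSV mice (log2FC -3.01). Ikzf4, an Ikaros-family transcription factor, was downregulated too, from 0.815 to 2.65 CPM in the HFD mice to 0.532 to 0.879 CPM in the HFD + RSV mice. NONMMUT026006.2 and NONMMUT139818.1 were named after their values were seen.

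Igf1, the growth factor that growth hormone induces through STAT5 in liver and muscle, moved the other way. It was at 25.4, 26.5, 30.1 and 23.2 CPM in the HFD mice and 34.9, 49.6, 39.6 and 30.4 CPM in the HFD + RSV mice, which all lay higher, by a narrow margin at the closest (log2FC 0.56, SE 0.16, adjusted P = 0.771 in edgeR, unadjusted 0.00514). NONMMUT006717.2, a lncRNA over exons of Igf1, fell from 36 to 84 counts to 10 to 27 counts, and the summed counts of gene and lncRNA overlapped between the groups at 591 to 764 and 697 to 1164.

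The count of insulin signalling genes that passed was near that of all genes. Of 24 genes tested, Cblb, a ubiquitin ligase that targets IRS1, rose from 40.2 to 58.0 CPM in the HFD mice to 50.4 to 69.7 CPM in the HFD + RSV mice, and none fell, beside 3.52% and 2.47% of all genes. Slc2a4, which encodes GLUT4, was at 348 to 369 CPM and 352 to 410 CPM (log2FC 0.09, 95% interval -0.12 to 0.29). Akt1 and Akt2 had log2FC of 0.01 (95% interval -0.17 to 0.19) and 0.04 (95% interval -0.17 to 0.24). Gsk3b, the kinase that AKT holds off glycogen synthase, had a log2FC of -0.17 (95% interval -0.41 to 0.08), and Irs1 one of -0.31 (95% interval -0.70 to 0.08). The intervals were narrowest for the AKT genes and Slc2a4, and protein phosphorylation is not visible in RNA libraries.

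The genes most often linked to RSV itself did not pass in any number. None of 17 sirtuin, NAD salvage and PGC-1 genes, 11 AMPK genes or 13 cAMP phosphodiesterases passed, with medians of 0.00, -0.04 and 0.08. Sirt1 averaged 8.69 ± 0.937 CPM (SD) in the HFD mice and 9.32 ± 0.960 CPM (SD) in the HFD + RSV mice (log2FC 0.10, 95% interval -0.14 to 0.35). Prkaa2, the main AMPK catalytic subunit of muscle, had a log2FC of -0.05 (95% interval -0.30 to 0.20) and Ppargc1a one of -0.26 (95% interval -0.76 to 0.24). Of 5 testable aryl hydrocarbon receptor targets, only Tiparp rose and none fell, beside 3.52% and 2.47% of all genes. It was at 24.4 to 33.0 CPM in the HFD mice and 32.2 to 50.9 CPM in the HFD + RSV mice, of which mice 2 and 4 were the highest. It did not pass without either of these mice, without both, or without HFD mouse 2.

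Among 22 antioxidant and NRF2 target genes, Prdx1 rose and Gsr fell, beside 3.52% and 2.47% of all genes, and 20 did not pass. Gsr, glutathione reductase, was at 34.0, 29.5, 28.6 and 32.4 CPM in the HFD mice and 20.6, 14.9, 18.6 and 32.1 CPM in the HFD + RSV mice, so mouse 4 was not lower. NONMMUT065156.2 (8:33697247-33698161), a transcript of 915 bases over the last exons of Gsr, had 2, 3, 2 and 2 counts in the HFD mice and 298, 268, 276 and 2 in the HFD + RSV mice, the mirror image of the gene. The summed counts of both overlapped at 655 to 794 and 615 to 762, and the log2 ratio of their mean CPM was 0.03. The fall of Gsr was therefore not seen once fragments given to the lncRNA were added back.

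Few genes of fuel metabolism passed, beside 3.52% of all genes that rose and 2.47% that fell. Pfkfb1, which sets the level of a glycolysis activator, was the only one of 24 glycolysis and glycogen genes to rise, from 29.1 to 36.4 CPM in the HFD mice to 42.5, 43.6, 30.6 and 56.4 CPM in the HFD + RSV mice. Sqle, an enzyme of cholesterol synthesis, rose from 0.686 to 0.918 CPM to 1.06, 2.24, 0.835 and 1.15 CPM. In both genes mouse 3 lay within the HFD range, and neither passed without HFD + RSV mice 2 and 4. None of 16 lipogenesis genes and none of 23 nuclear respiratory chain genes passed, with medians of 0.16 and -0.02.

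**Figure D2:**
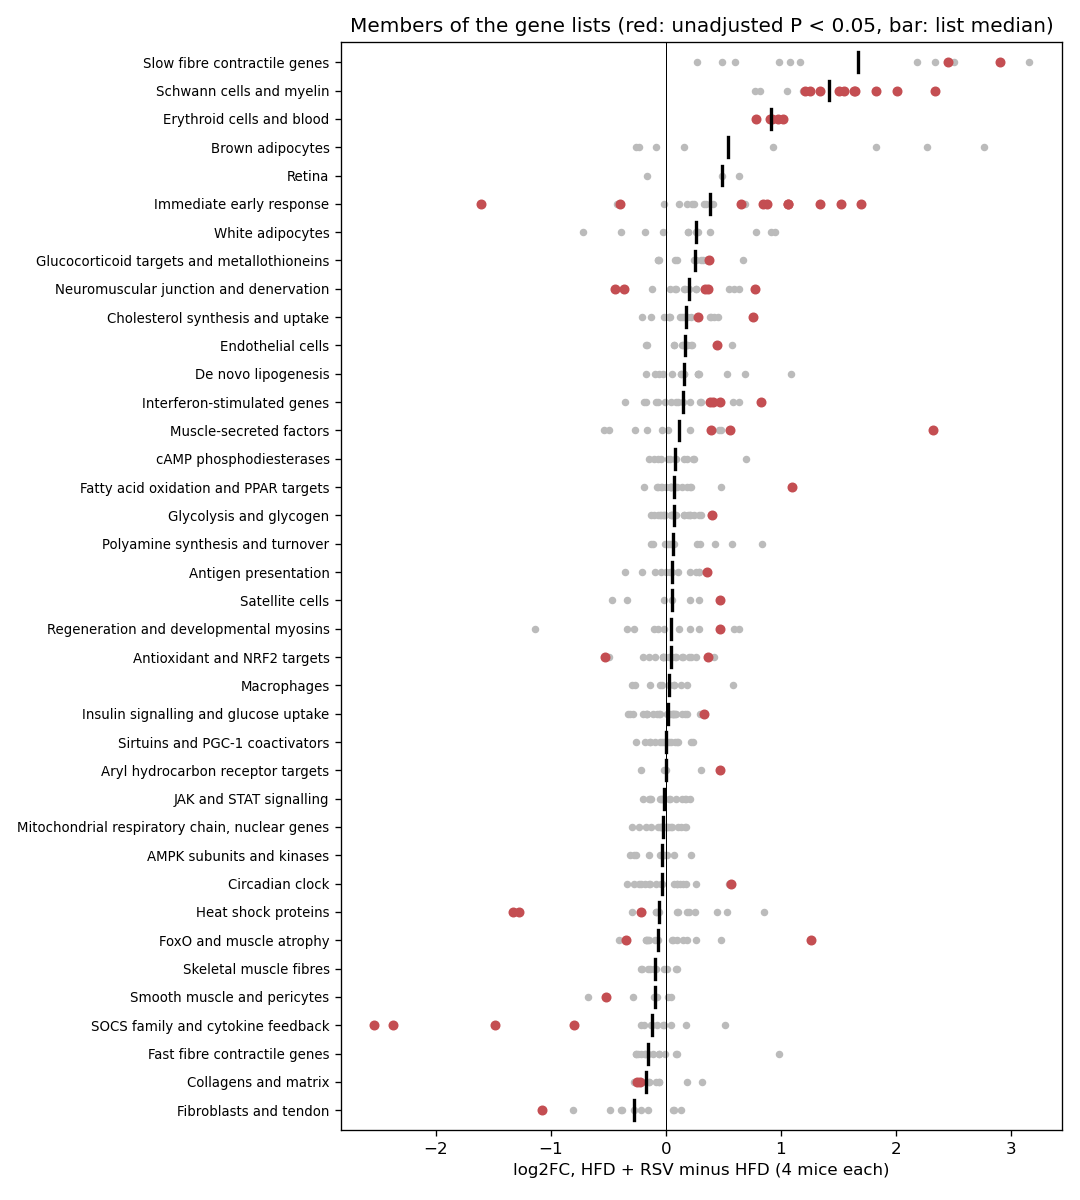
The log2FC (horizontal axis, HFD + RSV minus HFD) of every tested member of the gene and marker lists with at least 3 tested members, with members at an unadjusted P < 0.05 in red and the list median as a black bar. The SOCS list holds 4 red members between -2.54 and -0.80, whereas the slow fibre, Schwann cell and erythroid lists stand to the right with medians of 1.67, 1.42 and 0.91.

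Apart from the SOCS genes, the downregulated genes without overlap at 1 CPM or more were Utp14b, Gm42466, Mef2c and Dkk3. Mef2c (13:83504034-83667080), a transcription factor of muscle differentiation and fibre type, was the most abundant of them, at 417, 518, 535 and 339 CPM in the HFD mice and 126, 204, 230 and 249 CPM in the HFD + RSV mice. Every treated mouse lay below every HFD mouse, with a log2FC of -1.16 (SE 0.27, adjusted P = 0.771 in edgeR, unadjusted 0.00116), and the control mean was 144 CPM. Without HFD + RSV mouse 1 the log2FC of Mef2c was -0.99 and the call was lost by size alone. Utp14b (1:78658038-78671512), a retrogene copy of a ribosome assembly factor that lies within the gene Acsl3, was at 48.4, 38.9, 87.7 and 65.0 CPM in the HFD mice and 22.6, 24.6, 26.0 and 22.3 CPM in the HFD + RSV mice (log2FC -1.33, adjusted P = 0.310 in edgeR). Acsl3, a fatty acid activating enzyme, fell as well (log2FC -0.54), and because the transcripts overlap, fragments can be divided between them uncertainly.

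The strongest lncRNA result lay in Mef2c. NONMMUT018494.2 (13:83664245-83666339), 2095 bases long, lay wholly inside an untranslated region of Mef2c. It had 312, 1262, 967 and 446 counts in the HFD mice and 7 counts in each of the 4 HFD + RSV mice. The log2FC was -6.72 (SE 0.45, adjusted P = 0.000113 in edgeR), and the control mean was 1.79 CPM beside 223 CPM in the HFD group and 2.08 CPM in the HFD + RSV group. The lncRNA held few of the fragments of the locus, and the summed counts of gene and lncRNA were 7852 to 13907 in the HFD mice and 2840 to 5608 in the HFD + RSV mice. The sum therefore fell in every treated mouse, unlike that of Gsr.

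Dkk3, a secreted modulator of Wnt signalling in muscle and connective tissue, was at 83.1 to 117 CPM in the HFD mice and at 45.1, 5.98, 62.2 and 15.8 CPM in the HFD + RSV mice. The 2 lowest values were those of mice 2 and 4, and without them the log2FC of Dkk3 was -0.85 and no longer passed. Nr4a3, an orphan nuclear receptor induced by exercise and catecholamines, was downregulated with a slight overlap, from 8.46 to 34.6 CPM to 4.53 to 12.1 CPM (log2FC -1.61). Hspa1a and Hspa1b, nearly identical genes for inducible heat shock proteins whose reads cannot be safely assigned to one of them, were at 15 to 37.2 and 23.7 to 50.7 CPM in the HFD mice. In the HFD + RSV mice they were at 5.59 to 15.7 and 8.00 to 24.3 CPM, with mouse 1 inside the HFD range for both. Of 17 heat shock genes these 2 and Hspa5 fell and none rose, against 2.47% of all genes.

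Tyw3, an enzyme that modifies phenylalanine transfer RNA, had the smallest P of all genes. It was at 1.59, 1.80, 1.44 and 1.78 CPM in the HFD mice and 3.77, 3.66, 3.38 and 3.29 CPM in the HFD + RSV mice, with little spread in either group (log2FC 1.09, SE 0.15, adjusted P = 0.112 in edgeR). NONMMUT045865.2 (3:154576526-154579157), wholly inside an untranslated region of Tyw3, showed the opposite. It had 57, 50, 48 and 28 counts in the HFD mice and 4, 3, 11 and 5 in the HFD + RSV mice (log2FC -2.98, adjusted P = 0.0129 in edgeR). Summed over both, the counts were 67 to 94 and 79 to 89, and the log2 ratio of their mean CPM was 0.12. The division of fragments between the gene and the lncRNA thus differed between the groups at Tyw3, as it did at Gsr for all treated mice but mouse 4, and the totals did not separate the groups.

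**Figure D3:**
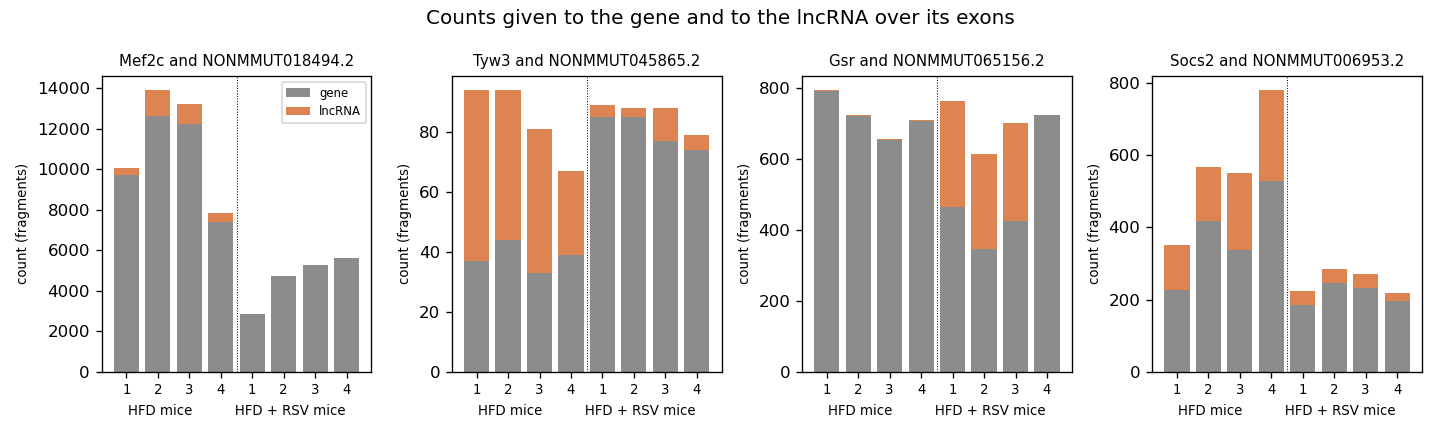
Counts of fragments (vertical axes, from 0) given to a gene in grey and to the lncRNA over its exons in orange, in HFD mice 1 to 4 (left of the dotted line) and HFD + RSV mice 1 to 4 (right). The totals of Mef2c and Socs2 were lower in all HFD + RSV mice, whereas those of Tyw3 and Gsr overlapped. The division between gene and lncRNA differed in all 4 HFD + RSV mice at Tyw3 and in mice 1 to 3 at Gsr.

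Of the 14 upregulated genes without overlap at 1 CPM or more, Tyw3 is described above and Mbp, Pllp, Fos and Alas2 below, which leaves 9. Shc4, a phosphotyrosine adaptor of receptor kinases, was at 1.10 to 1.85 CPM in the HFD mice and 3.28, 7.66, 4.17 and 4.08 CPM in the HFD + RSV mice (log2FC 1.79, adjusted P = 0.771 in edgeR). Spns2, the transporter that exports sphingosine 1-phosphate from cells, was at 51.7, 46.5, 41.9 and 54.8 CPM and 56.0, 163, 80.9 and 106 CPM, with mice 2 and 4 the highest and the log2FC of Spns2, 1.06 in all, was 0.49 without them. Bicd1, an adaptor of the dynein motor, and Mob3b, a partner of kinases, had log2FC of 1.01 and 1.57. NONMMUT046701.2, a lncRNA over an exon of Mob3b, was downregulated (log2FC -1.19), and the counts of this pair were not summed. Pon1, the paraoxonase of high-density lipoprotein, and Mpzl2, an adhesion protein, stayed below 2 CPM. Gm10275 and Gm8734 are pseudogenes in RefSeq, and Ppia, whose many pseudogenes can take its reads, was at 1.36 to 2.25 and 3.28 to 4.88 CPM.

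Myelin genes had the most members called of all the lists. Of 16 Schwann cell and myelin genes tested, 10 rose and all 10 were called, against 0.881% of all genes, with a median log2FC of 1.42. One of the 10, Egr2, is also an immediate early gene. Mbp and Pllp, which encode further myelin proteins, did not overlap, at 6.39 to 7.77 and 0.328 to 0.549 CPM in the HFD mice and 8.48 to 32.6 and 0.577 to 4.99 CPM in the HFD + RSV mice. The control mice also differed among themselves, with Mbp at 11.2, 21.8, 26.8 and 12.7 CPM. Prx, Drp2, Mag, Cldn19, Ncmap and the Schwann cell transcription factor Sox10 were, like Mbp and Pllp, highest in mouse 2 and next highest in mouse 4. The summed level of the list was 57.2 to 81.9 CPM in the HFD mice and 116, 502, 54.1 and 184 CPM in the HFD + RSV mice, so mouse 3 was at the level of the HFD mice. Without mouse 2 the list had 2 members that passed and a median of 0.80, and without mice 2 and 4 it had 1 and 0.19. In bulk muscle, a larger share of nerve and more myelin RNA per Schwann cell cannot be told apart.

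Genes of slow fibres followed the same animals. Of 12 tested, Tnnc1 and Tnnt1, slow troponins, rose, beside 3.52% of all genes. All 12 had log2FC above 0, beside 51.5% of all genes, with a median of 1.67. Myh7, the slow myosin heavy chain, was at 17.3, 6.51, 58.8 and 2.70 CPM in the HFD mice and at 7.01, 187, 39.0 and 528 CPM in the HFD + RSV mice, and it did not pass (log2FC 3.16, 95% interval -0.16 to 6.48). The control mice were as scattered, at 2.79, 910, 452 and 521 CPM. The summed level was 136 to 335 CPM in the HFD mice and 193, 575, 256 and 1557 CPM in the HFD + RSV mice. Mice 1 and 3 lay within the range of the HFD group, no member passed without mice 2 and 4, and the median was then 0.15. None of 15 fast fibre genes passed, and Myh4, the fastest myosin, was at 51440 to 58460 CPM in the HFD mice and 44510 to 53230 CPM in the HFD + RSV mice.

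Red cell genes showed a smaller rise with the same leader. Of 6 erythroid genes tested, 5 rose, against 3.52% of all genes, namely 4 haemoglobin genes, which come in near-identical pairs, and Alas2, the first enzyme of haem synthesis in red cells. Hba-a1 was at 129 to 170 CPM in the HFD mice and at 188, 506, 183 and 238 CPM in the HFD + RSV mice, so all treated mice lay higher. Without mouse 2 the median log2FC of the list fell from 0.91 to 0.48 and no member passed. In bulk tissue, more blood in a piece and more haemoglobin RNA per cell cannot be told apart.

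**Figure D4:**
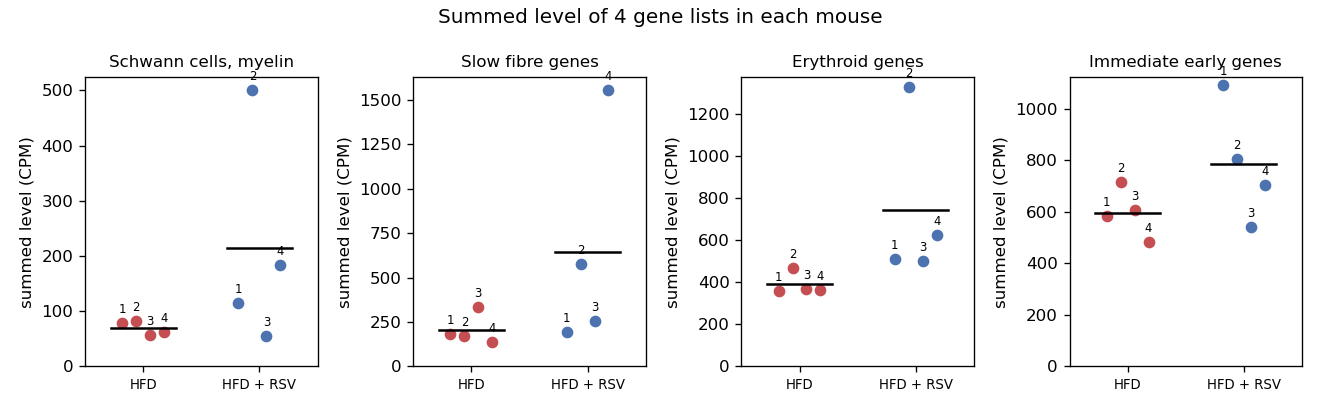
Summed levels in CPM (vertical axes, from 0) of the Schwann cell and myelin, slow fibre, erythroid and immediate early lists in each HFD and HFD + RSV mouse, with mouse numbers above the points and group means as black lines. HFD + RSV mouse 2 was highest in the myelin (502 CPM) and erythroid (1329 CPM) panels, mouse 4 in the slow fibre panel (1557 CPM) and mouse 1 in the immediate early panel (1092 CPM).

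Immediate early genes, which are transcribed within minutes of a stimulus such as contraction, stress or handling, rose in part. Of 20 tested, 8 rose and 2 fell, against 3.52% and 2.47% of all genes, and the median log2FC was 0.38. Fosl2, an AP-1 subunit, was at 30.3 to 35.5 CPM in the HFD mice and 79.8, 79.5, 38.2 and 44.0 CPM in the HFD + RSV mice without overlap. Egr1 was at 5.21 to 10.3 CPM and at 51.9, 18, 6.24 and 18.2 CPM, and Fos at 10.9 to 21.1 CPM and at 72.3, 21.5, 21.8 and 22.2 CPM, with mouse 1 far above the rest. Dusp1, Ier2, Junb, Egr2 and Nr4a2 also rose, while Nr4a3 and Myc fell. Without HFD + RSV mouse 1 the counts were 4 higher and 1 lower with a median of 0.10, and without mice 2 and 4 they were 9 higher and 1 lower of 21 tested. The order of killing and the time to freezing are not given in the labels.

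Genes of muscle-nerve contact and muscle hormones were mixed. Musk, Ache and Lrp4 of the neuromuscular junction rose and Dok7 and the deacetylase Hdac4 fell among 17 tested, beside 3.52% and 2.47% of all genes. Without HFD + RSV mice 2 and 4 the list had 1 member higher and 0 lower, and without HFD + RSV mouse 2 it had 0 of either. Musk, the receptor kinase that clusters acetylcholine receptors, was at 23.5 to 35.4 CPM in the HFD mice and at 24.4, 61.4, 30.7 and 80.4 CPM in the HFD + RSV mice, and the log2FC of Musk went from 0.78 to -0.06 without mice 2 and 4. Ostn, the muscle hormone osteocrin, was at 4.37 to 7.08 CPM in the HFD mice and at 5.37, 52.0, 4.97 and 50.5 CPM in the HFD + RSV mice, a call (log2FC 2.32) that was lost without mice 2 and 4, when the log2FC of Ostn was -0.12. Metrnl, a further secreted factor, rose slightly, as did Igf1 and Ostn, among the 12 tested, beside 3.52% of all genes.

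Small changes ran through a few other lists. Of 19 interferon-stimulated genes, Ifi44, Oasl2, Ifit2 and Gbp3 rose and none fell, beside 3.52% and 2.47% of all genes, with log2FC between 0.38 and 0.83, and 2 of the 19 passed without mice 2 and 4. Col4a1 and Col4a2, the paired chains of basement membrane collagen, fell slightly (log2FC -0.25 and -0.22) among 15 matrix genes, beside 2.47% of all genes. Both lay below the HFD mice without overlap, as 2.27% of all genes did. Neither passed without HFD + RSV mice 2 and 4, without HFD + RSV mouse 4, without HFD mouse 3 or 4, or with 16 mice in the fit. Ddit4, a stress-induced inhibitor of mTORC1, was upregulated from 12.9 to 28.5 CPM to 24.4, 47.7, 33.8 and 75.3 CPM, and lost its call without HFD mouse 2, without HFD + RSV mouse 4 and without HFD + RSV mice 2 and 4. Tsc22d3, a glucocorticoid-induced gene, rose from 74.8 to 99.6 CPM to 106 to 120 CPM, alone among 12 glucocorticoid targets and metallothioneins, beside 3.52% of all genes. It did not pass without HFD + RSV mice 2 and 4 or with 16 mice in the fit. None of 13 white adipocyte and 11 macrophage genes passed, although the summed adipocyte level spanned 608 to 1780 CPM in the HFD mice and 769 to 2295 CPM in the HFD + RSV mice.

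Among lncRNAs, 1132 (6.86%) passed unadjusted, 167 (1.01%) were called up and 141 (0.854%) down, and 3 reached an adjusted P of 0.05 in edgeR, all of them lower. Every HFD + RSV mouse lay above every HFD mouse for 362 lncRNAs (2.19%) and below for 327 (1.98%), including 58 of the 167 and 64 of the 141. By position, 46.8% of the downregulated and 29.3% of the upregulated lncRNAs overlapped an exon of a coding gene, beside 32.3% of all tested, and 22.7% and 45.5% lay outside coding genes, beside 27.7%. Of the 308, 267 lay over or within 50 kb of a tested coding gene. In 39 cases that gene passed, beside 5.99% of all genes, and in 24 of them in the same direction as the lncRNA. Some genes, among them Rab30 and Ift22, were counted for several lncRNAs, and the share for lncRNAs that were not called was not examined. The table gives no strand for the lncRNAs, so sense and antisense transcripts could not be separated.

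The third lncRNA past the adjusted P lay in an intron of Pde4d, a cAMP phosphodiesterase. NONMMUT019242.2 (13:109583992-109584445), 454 bases long, was at 43.4, 33.5, 48.6 and 37.7 CPM in the HFD mice and 8.38, 6.90, 15.8 and 11 CPM in the HFD + RSV mice (log2FC -1.95, SE 0.24, adjusted P = 0.0151 in edgeR). Pde4d itself did not pass, at 342 to 438 and 354 to 388 CPM (log2FC -0.10, 95% interval -0.30 to 0.09). NONMMUT005295.2, overlapping an untranslated region of the interleukin 17 signalling adaptor Traf3ip2, and NONMMUT047957.2, in introns of Sh3gl2 and Adamtsl1, had log2FC of -1.52 and -2.25. Sh3gl2, an endocytosis protein, was downregulated as well (log2FC -2.08).

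Of the 5 lncRNAs that the study followed up by RT-qPCR in cultured muscle cells, NONMMUT044897.2 and NONMMUT139818.1 were downregulated here and ENSMUST00000181045, NONMMUT071570.2 and NONMMUT065156.2 upregulated, reading its shortened names as these identifiers. The study lists all 5 among its top differentially expressed lncRNAs from these same libraries, so their directions here are no independent result. It also reports RT-qPCR of NONMMUT044897.2, NONMMUT005295.2 and other lncRNAs in mouse muscle, and it silenced NONMMUT044897.2 in the cultured cells. NONMMUT044897.2 (3:116419709-116423941), 4233 bases long over exons of the phosphatase gene Cdc14a, had 279, 540, 579 and 428 counts in the HFD mice and 167, 214, 147 and 113 counts in the HFD + RSV mice (log2FC -1.55, adjusted P = 0.0624 in edgeR). Cdc14a fell too (log2FC -0.55), and the summed counts were 1472 to 1820 and 760 to 1194. ENSMUST00000181045 (5:136919146-136937106), outside coding genes, was at 0, 3.44, 0 and 0 CPM and at 16.8, 10.9, 13.1 and 12.5 CPM. NONMMUT054892.2 (5:136918594-136937110), a lncRNA over nearly the same span, was downregulated (log2FC -2.11). Whether fragments moved between these overlapping transcripts was not tested. NONMMUT071570.2, within the gene span of the Notch coactivator Maml2, was at 7.41 to 10.3 CPM in the HFD mice and at 44.6, 36.8, 34.8 and 8.55 CPM in the HFD + RSV mice, low in mouse 4 as NONMMUT065156.2 was.

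The upregulated lncRNAs with the smallest P lay over or near coding genes, only some of which moved with them. NONMMUT002357.2, over exons of the phosphatase gene Ptpn4, was at 5.16 to 8.59 CPM in the HFD mice and 16.4 to 18.6 CPM in the HFD + RSV mice (log2FC 1.17, adjusted P = 0.0749 in edgeR), while the summed counts with Ptpn4 overlapped. The same held for NONMMUT050471.2 at the retinol reductase gene Dhrs3 and for NONMMUT024340.2 at Tob2, an antiproliferative gene, with log2FC of 1.03 and 1.61. NONMMUT051818.2 at Fosl2 and NONMMUT037357.2 at Nr4a2, with log2FC of 1.64 and 1.33, rose beside immediate early genes that rose as well. NONMMUT143802.1, 8959 bases from Tob2, and NONMMUT119847.1, over the gene model Gm42906, had log2FC of 2.35 and 2.06.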

How the data were processed

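Skeletal muscle RNA of 4 mice per group was sequenced. The authors deposited expected counts per transcript as whole numbers beside FPKM values, in tables of 58245 lncRNA and 82388 mRNA transcripts. Per the labels and the study's methods, reads were trimmed with fastp, aligned with HISAT2 to GRCm38 and counted with StringTie. StringTie divides fragments among overlapping transcripts, so a gene and a lncRNA over its exons can trade counts. FPKM values were not used. The annotation is not given in the sources used here. The coordinates of 98.7% of the lncRNAs with Ensembl identifiers equal those of GENCODE M21.

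From these counts, 4 mRNA rows broken over lines were joined and counts were summed per gene name (23235 names, 53 with more than 1 gene ID). The control, HFD and HFD + RSV groups were fitted together, 12 mice, with the quasi-likelihood test of edgeR 4.0.16 in R 4.3.3, after filterByExpr (minimum count 10, minimum total 15) and TMM scaling within each table. P-values were adjusted by Benjamini-Hochberg over all features of a table. They set the difference between the HFD + RSV and HFD groups against a spread between mice. That spread was estimated from all 12 mice, control mice included, and moderated across features. Calls need an unadjusted P under 0.05 with a log2FC beyond 1 in either direction. Standard errors are the absolute log2FC over the square root of F. The model was tested on simulated data. Overlap was judged on log2 CPM with a prior count of 2. Positions are on GRCm38, 1-based. Depth was 24498057 to 30593942 counts per mouse, and the common biological coefficient of variation was 0.228 for genes and 0.382 for lncRNAs. For features with many counts, differences between mice limited precision more than counting did. Counting limited it too for features with few counts, such as Socs1 and NONMMUT153460.1 in the HFD + RSV mice.

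Named genes are up to 12, and lncRNAs up to 8, per direction with the smallest unadjusted P among called features without overlap at a mean of 1 CPM or more, up to 4 members per list by P that passed (or the 2 most abundant), and Socs1, Akt1, Akt2, Gsk3b, Irs1 and Slc2a4. The comparison, lists and rules were chosen with earlier results of these data known. The Hox and Tbx genes, Bcl6, Acsl3, Ikzf4, Sh3gl2, Hemk1, Sirt1, Ppargc1a, Myh7, Lrp4, Pim1, further members of the myelin, erythroid and immediate early lists, and the lncRNAs outside the rule were named after their values were seen. Alternatives were RLE scaling, no filter, DESeq2 1.42.0, 8 or 16 mice, lncRNA scaling from both tables, and leaving out each mouse. Leaving out HFD + RSV mice 2 and 4 together was added after seeing the data. Some genes are not reported here.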

Additional observations from a re-analysis of the deposited data

Results flagged for a closer look

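In groups of 4 mice, 240 sets of values were searched for a single mouse far from the other 3 by Dixon's criterion, and 23 (9.58%) held one, where chance gives about 1 in 20. Of the 23, 12 were HFD mice and 11 HFD + RSV mice. In the HFD group the high values were 51.4 CPM of Gm10275 in mouse 1, 4.42 CPM of Metrnl in mouse 3, and, in mouse 2, 3.44 CPM of ENSMUST00000181045, 148 CPM of Prdx1, 170 CPM of Hba-a1, 10.3 CPM of NONMMUT071570.2 and 470 CPM of the summed erythroid genes. Its low values were 5.16 CPM of NONMMUT002357.2 in mouse 2, 0.962 CPM of Cldn19 and 1.09 CPM of Sox10 in mouse 3, and 219 CPM of Ghr and 1.97 CPM of Amd2 in mouse 4. In the HFD + RSV group mouse 1 was low for Gm42466 (1.02 CPM) and high for Fos (72.3 CPM), and mouse 2 was high for Alas2 (20.2 CPM) and the summed erythroid genes (1329 CPM). Mouse 3 was high for Hspa5 (146 CPM), Akt2 (119 CPM), NONMMUT006717.2 (8.04 CPM) and Ucp1 (8.74 CPM). Mouse 4 was high for NONMMUT002357.2 (18.6 CPM) and low for Pim1 (20.4 CPM) and NONMMUT065156.2 (0.61 CPM), the lncRNA over Gsr.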

How the results depend on the processing

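The analysis called 162 genes and 308 lncRNAs, and 905 genes passed unadjusted. Leaving out 1 mouse at a time gave 111 to 271 genes, 310 to 468 lncRNAs and 575 to 1123 genes passing, the highest 3 values all without HFD + RSV mouse 3, and leaving out HFD + RSV mice 2 and 4 gave 142 genes called and 595 passing. Without the filter on low counts 449 genes and 1913 lncRNAs were called, and with only the 8 mice in the fit 198 lncRNAs. After Benjamini-Hochberg adjustment in edgeR 0 genes and 3 lncRNAs remained. Scaling by RLE, DESeq2, no filter and 8 or 16 mice left 568 of 593 log2FC of 115 named features with their direction and call, 21 weaker, 3 stronger and 1 reversed, Dhrs3, at 5e-04 with 8 mice. Leaving out mice, singly or 2 and 4 together, left 806 of 1035 unchanged in direction and call, 190 weaker, 13 stronger and 26 reversed. Without HFD + RSV mice 2 and 4 the log2FC turned to -0.17 for Tnnc1, -0.0599 for Musk, -0.12 for Ostn, -0.0182 for Akt1, -0.0079 for Slc2a4, -0.0107 for Sirt1, -0.29 for Hoxd8, 0.0184 for Tbx1, -0.006 for Ptpn4, 0.0398 for Dhrs3, -0.009 for Hoxa10, -0.0288 for Amd1 and -0.37 for Amd2. The cause was not tested. Leaving out single mice turned 7 features, whose log2FC ran from -0.938 to 0.436 for Amd2, -0.0467 to 0.0442 for Akt1, -0.012 to 0.102 for Akt2, -0.37 to 2.85 for Ucp1, -0.0139 to 0.144 for Ptpn4, -0.0732 to 0.112 for Dhrs3 and -0.0577 to 0.0139 for Hoxc10. No paired analysis was possible because the numbers in the labels name mice, nothing links them between the groups, and 2 HFD + RSV mice end in the same number. At these depths genes below 1 CPM rested on few reads.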

Other observations

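Some further genes differed widely between mice of the same group, and they are named here after their values were seen. Amd2, a retrogene copy of the polyamine enzyme gene Amd1, was at 281, 262, 295 and 1.97 CPM in the HFD mice and at 1.77, 527, 323 and 4.17 CPM in the HFD + RSV mice, so HFD mouse 4 and HFD + RSV mice 1 and 4 had almost none. Gm6123 was at 0 in all 4 HFD mice, at 14.2, 0, 0 and 14.4 CPM in the HFD + RSV mice and at 13.3 to 18.7 CPM in the control mice, and it was called up with HFD + RSV mice 2 and 3 at 0. Ucp1, the uncoupling protein of brown fat, was below 1.1 CPM in 7 of the 8 mice and at 8.74 CPM in HFD + RSV mouse 3, while the control mice ran from 3.11 to 404 CPM.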
